A study of Mus musculus with 6 samples.

Results

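Tumour necrosis factor (TNF) and 9 receptors of its family were followed in the RNA of 4T1 mouse mammary carcinoma cells with and without editing of Uba6. The 10 genes were taken by name (Tnf, Tnfrsf1a, Tnfrsf1b, Tnfrsf11a, Tnfrsf12a, Tnfrsf10b, Tnfrsf21, Fas, Ltbr and Cd40), and all 10 were among the 19255 genes with values. In Uba6-edited cells the mRNAs of Tnfrsf1b and Tnfrsf11a rose, that of Cd40 rose with a call that most other settings did not keep, and those of Tnf and Fas fell. The other 5 receptors did not pass the test.

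The study asked how loss of UBA6, an E1 enzyme that activates ubiquitin and the ubiquitin-like protein FAT10, alters tumour cells. Cas9-expressing 4T1 cells, grown in RPMI 1640 medium with 10% fetal bovine serum, had received a lentiviral guide RNA vector and puromycin selection. Cells with a control guide (sgCtrl, 3 libraries, genotype labelled wild type) were compared with cells with a guide against Uba6 (sgUba6, 3 libraries, genotype labelled UBA6 knockout). The treatment label names a UBA6 guide vector for all 6 libraries, controls included, whereas the study's methods give the control cells their own guide. Whether the edited line was a clone was not stated. The study states in general that its results were biologically repeated, but the labels do not tie these libraries to separate cultures. Part of the spread behind each p-value may therefore be technical, and it is the spread of these 6 libraries alone.

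TNF is made as a membrane-bound precursor that the protease ADAM17 can release. It signals through TNFR1 (Tnfrsf1a), which carries a death domain and is found on most cells, and through TNFR2 (Tnfrsf1b), which has no death domain and responds best to the membrane-bound form. Death-domain receptors such as TNFR1, FAS and the TRAIL receptor can recruit FADD and caspase-8, while TNFR2, RANK, FN14, CD40 and the lymphotoxin β receptor recruit TRAF adaptors and feed into NF-κB. Much of this signalling is written in ubiquitin chains, which TRAF and cIAP ligases and the linear ubiquitin ligase build, and which A20 and CYLD take apart.

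The promoters of 4 members (Tnf, Tnfrsf1b, Tnfrsf11a and Fas) are shown to compare the sequence upstream of genes that moved in opposite directions. These 4 kept their call in every other setting that tested them, although the size of the change depended on the setting for Tnf and Tnfrsf11a. Tnf reached the minimum level for testing in the sgCtrl libraries alone and Tnfrsf11a in the sgUba6 libraries alone. Their kept calls are therefore no support for a difference. Each is the 250 bases before the RefSeq start on GRCm38.p6, written 5′ to 3′ on the strand of the gene, with motif matches in capitals. The windows lie at chr17:35202008-35202257 (minus strand, Tnf), chr4:145246871-145247120 (minus strand, Tnfrsf1b), chr1:105780473-105780722 (plus strand, Tnfrsf11a) and chr19:34290409-34290658 (plus strand, Fas).
Tnf: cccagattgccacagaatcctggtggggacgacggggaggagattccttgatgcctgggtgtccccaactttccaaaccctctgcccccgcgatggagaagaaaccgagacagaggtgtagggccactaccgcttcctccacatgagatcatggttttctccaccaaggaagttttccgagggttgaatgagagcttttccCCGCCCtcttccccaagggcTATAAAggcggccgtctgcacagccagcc
Tnfrsf1b: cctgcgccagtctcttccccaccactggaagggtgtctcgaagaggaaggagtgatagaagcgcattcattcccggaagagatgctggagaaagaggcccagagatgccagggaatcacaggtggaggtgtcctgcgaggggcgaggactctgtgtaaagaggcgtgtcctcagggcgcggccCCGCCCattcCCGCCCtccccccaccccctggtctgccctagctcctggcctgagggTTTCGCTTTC
Tnfrsf11a: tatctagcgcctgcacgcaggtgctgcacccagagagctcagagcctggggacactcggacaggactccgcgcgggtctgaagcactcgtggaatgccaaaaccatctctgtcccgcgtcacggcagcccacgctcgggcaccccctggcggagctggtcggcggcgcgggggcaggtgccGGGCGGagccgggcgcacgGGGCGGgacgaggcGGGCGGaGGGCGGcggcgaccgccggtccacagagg
Fas: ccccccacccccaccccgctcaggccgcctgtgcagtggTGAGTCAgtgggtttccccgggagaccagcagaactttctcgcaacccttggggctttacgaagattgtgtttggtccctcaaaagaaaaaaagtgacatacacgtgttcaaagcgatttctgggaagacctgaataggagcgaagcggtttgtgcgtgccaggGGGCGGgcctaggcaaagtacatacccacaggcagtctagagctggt

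The windows were searched on both strands for the NF-κB consensus, AP-1 (TGANTCA), interferon-response type repeats (GAAA, any 2 bases, GAAA), a TATA box (TATAAA) and a GC box (GGGCGG), where matches of a motif may overlap. Tnf had the TATA box, 29 to 24 bases before the start, and a GC box at 49 to 44 bases. A TATAAA match was found in 12.372% of 32817 RefSeq windows of this length and a GC box in 32.721%. Tnfrsf1b had no TATAAA match but carried the GAAA repeat, read on the opposite strand, in the last 10 bases before its start, and GC boxes at 67 to 62 and 57 to 52 bases. That interferon-type match was present in 2.968% of all windows. Tnfrsf11a had the most GC-rich window of the members, with 73.6% G or C, 31 CG dinucleotides and 4 GC boxes. Fas carried an AP-1 match 211 to 205 bases before its start, a motif in 6.753% of windows, and a GC box at 47 to 42 bases. Among the other 4 members with a RefSeq window, Tnfrsf12a held 5 GC boxes, Ltbr 2, Tnfrsf21 1 and Tnfrsf1a none of the motifs. The RefSeq start of Tnfrsf1a lies 361 bases downstream of its annotated gene start, so its window lies within the gene. None of the 8 windows held the NF-κB consensus, which occurs in 7.249% of all windows. The 4 printed windows shared the GC box and no other motif of the 5, the window of Cd40 was not analysed here, and a match describes letters in this window, not binding.

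Levels are FPKM, fragments scaled to transcript length and library size, which allows levels of different genes to be set side by side. Such comparisons rest on the transcript lengths used, which were not checked here. Fold changes are differences of log2(FPKM + 0.5), sgUba6 minus sgCtrl, which understate the change of low genes. Adjusted p-values are from limma, with Benjamini-Hochberg adjustment over the 12190 genes with at least 0.5 FPKM in 3 libraries and a threshold of 0.05. All 10 members passed that filter. Tnf passed it through the sgCtrl libraries alone and Tnfrsf11a through the sgUba6 libraries alone, so these genes had to differ once they were kept.

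Uba6 itself measured 16.4, 16.4 and 17.0 FPKM in the control libraries against 10.9, 12.1 and 12.0 FPKM in the edited libraries, so the targeted mRNA was lower in every edited library. The change was -0.49 (95% interval -0.63 to -0.35, limma adjusted p = 0.000601). Library values correlated at 0.9911 to 0.9921 within a group and at 0.9605 to 0.9628 between groups, and summed FPKM ran from 352535 to 362762. Fragment counts were not used here. The most frequent product of FPKM and transcript length in kb among genes with 1 transcript was taken as the step of 1 fragment. It was sought between 0.04 and 0.08 only, which bounded the outcome in advance. If this step marks 1 fragment, it corresponds to about 15000000 to 18200000 fragments per library, with the lowest in sgCtrl 3. The epithelial identity of the line was clear, with Krt8 at 551 to 676 FPKM and Epcam and Cdh1 at 104 FPKM or more in all 6 libraries. Of the 7 epithelial markers 2 were called higher and 1 lower, where 24.7% and 22.7% of all genes tested were called. Of 5 endothelial markers Pecam1 had values, and it was at 0.00222 to 0.214 FPKM.

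Of the 10 members, 3 were called higher and 2 lower, where 24.7% of all genes tested were called higher and 22.7% lower (47.4% in all). The groups did not overlap for 7 members, against 57.6% of all genes tested. These 7 include Tnf and Tnfrsf11a, whose separation was set by how they passed the filter, and both are also among the called members. The median change of the members was -0.01, beside 0.01 for all genes. The share of members that moved was thus near the background of this comparison, and the values below are about individual genes.

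**Figure D1:**
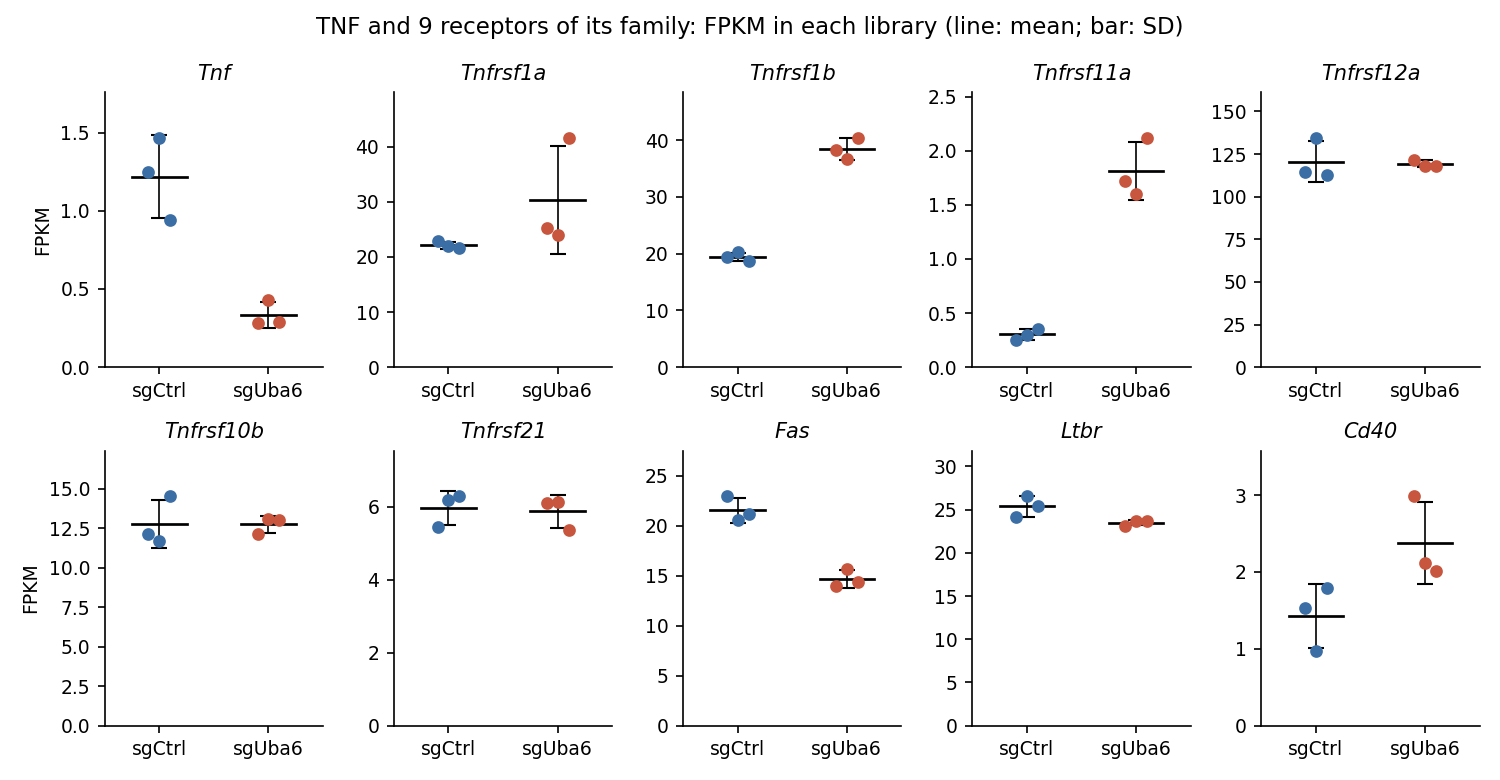
FPKM (y axis, a separate linear scale from 0 for each gene) of Tnf and the 9 receptors in the 3 sgCtrl (blue) and 3 sgUba6 (red) libraries; points are libraries, horizontal lines are means and bars are SD. Tnfrsf1b and Tnfrsf11a separate upwards, Tnf and Fas downwards, and the wide bar of Tnfrsf1a comes from sgUba6 3 at 41.6 FPKM.

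The ligand came first. Tnf (ENSMUSG00000024401, chr17:35199381-35202007 on the minus strand of GRCm38) lies between the genes of its relatives Ltb and Lta, 3060 and 1157 bases away. Its mRNA measured 1.25, 1.47 and 0.941 FPKM in the control libraries against 0.285, 0.427 and 0.286 FPKM in the edited libraries. The lowest control library was above the highest edited library, and all 6 values were far below the median gene tested, which was at 10.7 FPKM or more in each library. The mean fell from 1.22 ± 0.264 FPKM (SD, n = 3) to 0.333 ± 0.0814 FPKM (SD, n = 3), a change of -1.04 on the log2 scale (95% interval -1.39 to -0.68, limma adjusted p = 0.00146). Under the assumption on steps, Tnf rested on about 36.3, 43.8 and 23.2 fragments in the control libraries and 7.8, 12.5 and 8.2 in the edited libraries, and its size depended on the added constant, from -1.60 with 0.1 to -0.73 with 1. The protein-coding genes whose log2 values followed Tnf most closely over the 6 libraries were Me3 (Pearson r = 0.998), Nsun5 (0.997) and Coq9 (0.996). These had the highest r of 11063 protein-coding genes, so a high r follows in part from the choice. Each was called lower in sgUba6 cells, as were 22.7% of all genes tested. A gene that follows Tnf this closely has to be lower there, so these calls follow from the choice and are no separate result.

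The receptors of TNF did not move alike. Tnfrsf1b, the TNFR2 gene (ENSMUSG00000028599, chr4:145213463-145246870, minus strand), measured 19.4, 20.2 and 18.7 FPKM in the control libraries against 38.2, 36.7 and 40.4 FPKM in the edited libraries. Each group was tight and the 2 groups were far apart. The mean level was 1.98-fold higher in sgUba6 cells, a log2 change of 0.97 (95% interval 0.84 to 1.09, limma adjusted p = 2.64e-05). In all 14 alternative settings the change stayed between 0.93 and 1.00 and passed the threshold. Because RNA was taken in bulk, more cells with the transcript and more RNA per cell cannot be told apart, here and for every gene described.

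Tnfrsf1a, the TNFR1 gene (ENSMUSG00000030341, chr6:125349362-125362484, plus strand), measured 22.8, 22.0 and 21.6 FPKM in the control libraries against 25.3, 24.0 and 41.6 FPKM in the edited libraries. All edited libraries lay above all controls, but sgUba6 3 stood well above the other edited libraries. The mean change of 0.40 (95% interval -0.06 to 0.86) was not past the threshold (limma adjusted p = 0.137). Without sgUba6 3 the change was 0.15 with an adjusted p of 0.0782 from limma, so the size of the difference rested on that library.

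**Figure D2:**
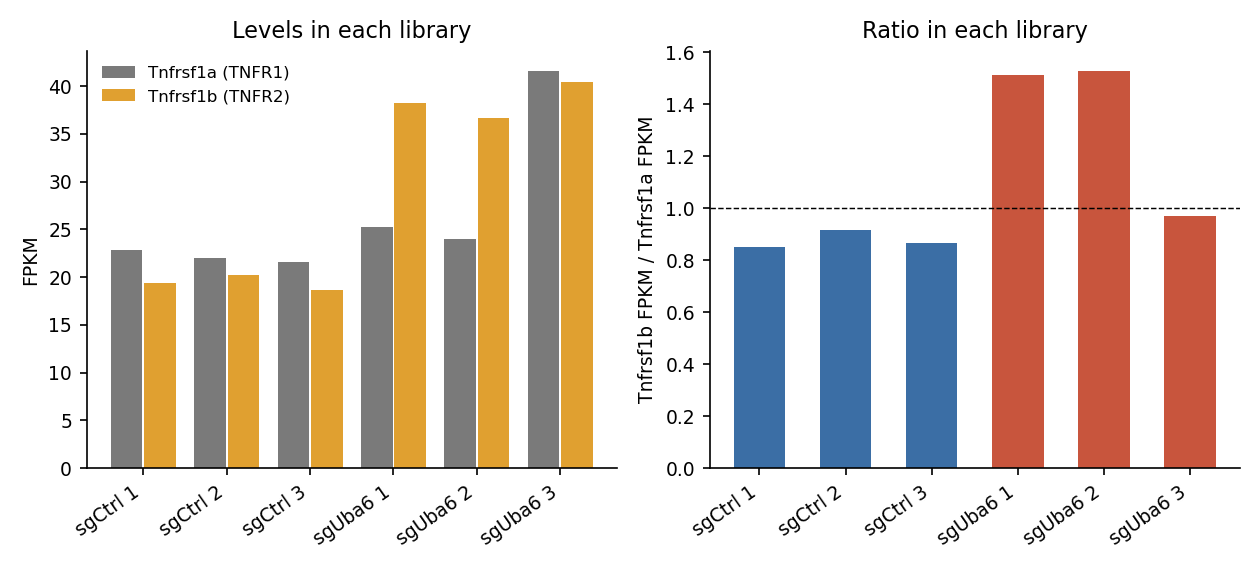
Left, FPKM of Tnfrsf1a (grey) and Tnfrsf1b (orange) in each library; right, the ratio of Tnfrsf1b to Tnfrsf1a FPKM in each sgCtrl (blue) and sgUba6 (red) library, with a dashed line at equal levels. The ratio is below 1 in the 3 controls and in sgUba6 3, and above 1.5 in sgUba6 1 and sgUba6 2.

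The balance of the TNF receptors was read as the ratio of Tnfrsf1b to Tnfrsf1a FPKM. It was 0.851, 0.918 and 0.867 in sgCtrl cells and 1.51, 1.53 and 0.970 in sgUba6 cells. By FPKM, Tnfrsf1a was the higher in every control library, Tnfrsf1b in sgUba6 1 and sgUba6 2, and the levels were close in sgUba6 3. A ratio of different genes depends on the transcript lengths behind the FPKM. Which of these mRNAs was the more abundant was therefore not settled here. The means were 0.878 ± 0.0349 and 1.34 ± 0.318 (SD, n = 3 each), and the exact two-sided permutation p of 0.1 is the smallest that 3 libraries against 3 allow. Without sgUba6 3 the edited mean was 1.52.

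Among the death receptors other than TNFR1, Fas was the gene that was called. Fas (ENSMUSG00000024778, chr19:34290666-34327772, plus strand), the receptor of FAS ligand, measured 23.0, 20.6 and 21.2 FPKM in the control libraries against 13.9, 15.7 and 14.3 FPKM in the edited libraries. No library of one group reached the range of the other. The mean fell from 21.6 ± 1.24 to 14.7 ± 0.934 FPKM (SD, n = 3 each), a change of -0.54 (95% interval -0.70 to -0.38, limma adjusted p = 0.000705), and it stayed between -0.59 and -0.50 in all 14 alternatives. Fasl, which encodes the ligand, was listed at 0 in 5 libraries and at 0.146 FPKM in sgCtrl 3.

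Tnfrsf10b, which encodes the death-domain TRAIL receptor of the mouse (ENSMUSG00000022074, chr14:69767472-69784411, plus strand), measured 12.1, 11.7 and 14.5 FPKM in the control libraries against 12.1, 13.1 and 13.0 FPKM in the edited libraries. The ranges overlapped, and the interval of the log2 change ran from -0.21 to 0.21. The gene shares a stretch of 405 bases at 97.531% identity with Gm15574, so some of its reads could have been assigned to either. Tnfrsf21, the gene of death receptor 6 (ENSMUSG00000023915, chr17:43016555-43089189, plus strand), measured 5.45, 6.19 and 6.29 FPKM in the control libraries against 6.12, 6.15 and 5.37 FPKM in the edited libraries. The groups overlapped and the interval of its change was -0.22 to 0.18. The ratio of Fas to Tnfrsf10b FPKM was 1.89, 1.76 and 1.46 in controls and 1.15, 1.20 and 1.10 in edited cells. Fas had the higher FPKM of the pair in all 6 libraries, by less in each edited library (exact two-sided permutation p = 0.1 on log2 ratios, the smallest possible). With overlapping groups for Tnfrsf10b, this largely restates the fall of Fas.

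The TRAF-coupled receptors held the largest rise among the members and the most abundant of them. Tnfrsf11a encodes RANK (ENSMUSG00000026321, chr1:105780718-105847981, plus strand), the RANK ligand receptor known for osteoclast formation and mammary gland development. It measured 0.255, 0.301 and 0.352 FPKM in the control libraries against 1.72, 1.60 and 2.12 FPKM in the edited libraries. The control libraries were all below the 0.5 FPKM minimum and the edited libraries all above it. The mean level was 5.99-fold higher in sgUba6 cells, with a log2 change of 1.52 (95% interval 1.23 to 1.81, limma adjusted p = 0.000116) that ranged from 1.11 with an added constant of 1 to 2.25 with 0.1. On the assumption that the step marks 1 fragment, this was 22.8 to 27.6 fragments per control library and 143.7 to 186.2 per edited library. RANK mRNA was at 0.0450, 0.0437 and 0.0525 of TNFR2 mRNA in the edited libraries, beside 0.0131, 0.0149 and 0.0189 in the controls. Of its partners, the soluble decoy osteoprotegerin (Tnfrsf11b) gave 0, 0 and 0.0236 FPKM in control libraries and 0.170, 0.387 and 0.375 FPKM in sgUba6 cells, below the filter.

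Tnfrsf12a, which encodes FN14, the receptor of the cytokine TWEAK (ENSMUSG00000023905, chr17:23675445-23677468, minus strand), was the most abundant member in every library. It measured 114.7, 134.5 and 112.5 FPKM in the control libraries against 121.7, 118.0 and 118.2 FPKM in the edited libraries. The edited libraries fell inside the control range, and the interval of the log2 change was -0.18 to 0.15. The genes closest to it over the 6 libraries were Agpat3 (r = 0.992), Bcl2l13 (0.978) and Rce1 (0.978), again picked as the highest of 11063 genes. Without sgCtrl 2 the sign of the change turned for Tnfrsf12a (0.070), Agpat3 (0.055), Bcl2l13 (0.16) and Rce1 (0.066).

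Ltbr (ENSMUSG00000030339, chr6:125306571-125313885, minus strand), the lymphotoxin β receptor gene, lies 35476 bases from Tnfrsf1a. It measured 24.1, 26.5 and 25.4 FPKM in the control libraries against 23.1, 23.7 and 23.7 FPKM in the edited libraries. The edited libraries were all just below the controls. The change of -0.11 (95% interval -0.22 to 0.01) was not past the threshold (limma adjusted p = 0.112).

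Cd40 (ENSMUSG00000017652, chr2:165055627-165072948, plus strand), the gene of a receptor best known for costimulation of B cells and dendritic cells, measured 1.53, 0.975 and 1.79 FPKM in the control libraries against 2.98, 2.12 and 2.01 FPKM in the edited libraries. The groups did not overlap, but the gap between the nearest libraries (1.79 and 2.01 FPKM) was narrow. The change was 0.58 (95% interval 0.11 to 1.05, limma adjusted p = 0.0487), and the adjusted p ran from 0.0370 to 0.135 over 14 alternatives, of which 4 kept the call. The call was lost on leaving out any library other than sgCtrl 3. Its change was 0.40 without sgCtrl 2 and 0.43 without sgUba6 1, with adjusted p of 0.112 and 0.134 from limma.

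Tnfrsf1b rose 3 places in the order of mean levels, Ltbr dropped 2 places and Fas 1, and Tnf and Tnfrsf11a exchanged places. In sgCtrl cells the receptors ran from Tnfrsf12a (mean 120.6 FPKM) through Ltbr (25.4), Tnfrsf1a (22.1), Fas (21.6), Tnfrsf1b (19.4), Tnfrsf10b (12.8), Tnfrsf21 (5.98) and Cd40 (1.43) to Tnfrsf11a (0.303). Tnfrsf1a and Fas overlapped there, as did Cd40 and Tnf. In sgUba6 cells Tnfrsf1b (38.4) followed Tnfrsf12a (119.3), ahead of Tnfrsf1a (30.3), with which it overlapped, Ltbr (23.5) and Fas (14.7). Cd40 (2.37) and Tnfrsf11a (1.81) overlapped, and Tnf (0.333) was last. Summed over the 9 receptors, the level was 223.4, 243.0 and 222.3 FPKM in controls and 245.2, 240.9 and 260.7 FPKM in edited cells, ranges that overlapped. Of that sum, Tnfrsf12a made up 52.4% on average in controls and 48.0% in edited cells, Tnfrsf1b 8.47% and 15.4%, and Fas 9.42% and 5.90%.

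**Figure D3:**
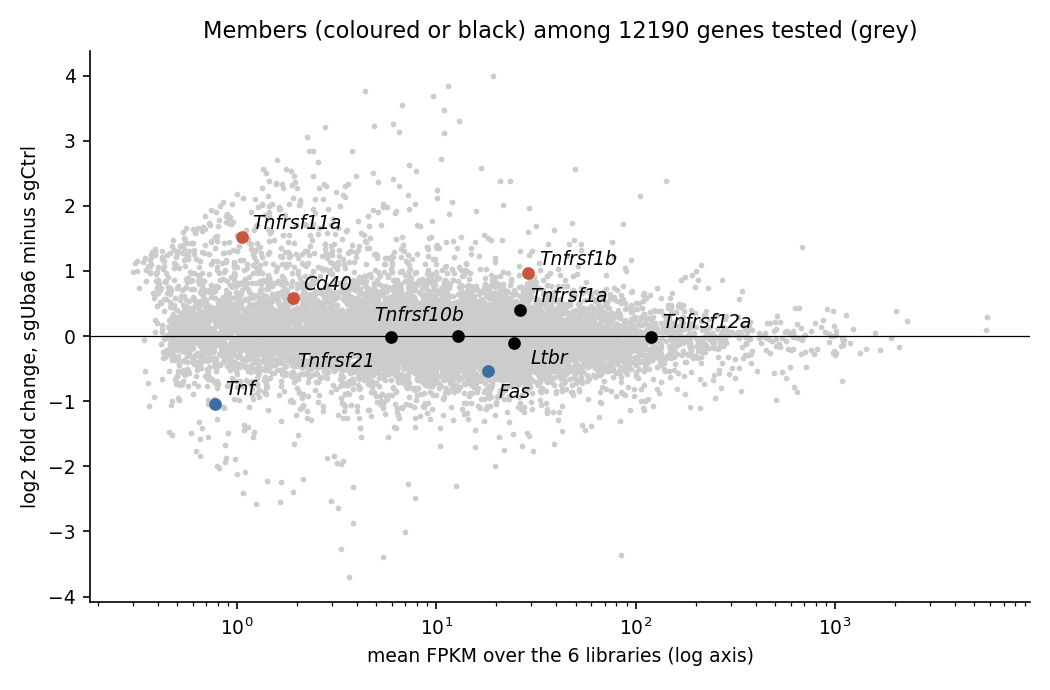
Log2 fold change (sgUba6 minus sgCtrl, y axis) against mean FPKM over the 6 libraries (x axis, log scale) for the 12190 genes tested (grey), with members called higher (red), called lower (blue) or not passed (black). Tnf, Tnfrsf11a and Cd40 lie at the low end of expression and Tnfrsf12a at the high end with no visible change.

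Markers of other cells were set beside these levels, since TNFR2, RANK and CD40 are also leukocyte receptors. Of 12 leukocyte markers 6 had values, and the 3 that passed the filter (Cd68, Csf1r and Cd14) were called higher, as were 24.7% of all genes tested. Csf1r passed it through the edited libraries alone and so had to differ, and the call of Cd14 was lost without sgCtrl 2, sgCtrl 3, sgUba6 1 or sgUba6 3 (limma adjusted p up to 0.0791). The summed list was at 18.8 to 20.3 FPKM in sgCtrl cells and 29.9 to 34.1 FPKM in sgUba6 cells. That is the direction of Tnfrsf1b, Tnfrsf11a and Cd40, and a link between them was not tested. Most of that sum came from Cd14 (mean 11.2 FPKM in sgCtrl and 14.2 in sgUba6 cells) and Cd68 (7.73 and 16.2). The call of Cd68 passed in all 14 alternatives. The pan-leukocyte marker Ptprc was at 0 to 0.0195 FPKM in all 6 libraries, Lyz2 at 0 to 0.0427 FPKM and Cd79a at 0 to 0.118 FPKM. The other 6 were not analysed here. Of 6 fibroblast markers 3 had values, with a summed level of 2.57 to 2.82 FPKM in control and 4.71 to 5.80 FPKM in edited cells. Nearly all of it came from Pdgfra (mean 2.69 and 5.28 FPKM). Pdgfra, the 1 marker of these that passed the filter, was called higher, while Dcn was at 0 in 5 libraries and at 0.0317 FPKM in sgUba6 2.

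Most other ligands of the family with values were low in these cells. Of 17 further ligand genes 9 had values and 2 passed the filter, Tnfsf9 (the ligand of 4-1BB) and Tnfsf13 (APRIL). None was called in either direction by limma, where 24.7% of all genes tested were called higher and 22.7% lower. At an unadjusted p under 0.05 1 was higher and 0 lower. Tnfsf13 measured 2.97, 2.31 and 3.73 FPKM in the control libraries against 5.35, 3.56 and 4.39 FPKM in the edited libraries, groups that overlapped (change 0.50, limma adjusted p = 0.0641). Without sgCtrl 3 or sgUba6 2 its adjusted p was 0.0327 or 0.0412 from limma. Tnfsf9 was at 2.76 to 3.01 FPKM in sgCtrl cells and 2.49 to 4.13 FPKM in sgUba6 cells, with a change of 0.16 that reached 0.34 (limma adjusted p = 0.0414) without sgUba6 2. Of the ligands for the members, Lta was at 0.0792 to 0.256 FPKM over all libraries, Ltb at 0 to 0.247 FPKM, and Tnfsf10, which encodes TRAIL, at 0.0673 to 0.248 FPKM. The genes of RANK ligand (Tnfsf11), TWEAK (Tnfsf12) and CD40 ligand (Cd40lg) had no values, which does not show that they were silent.

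**Figure D4:**
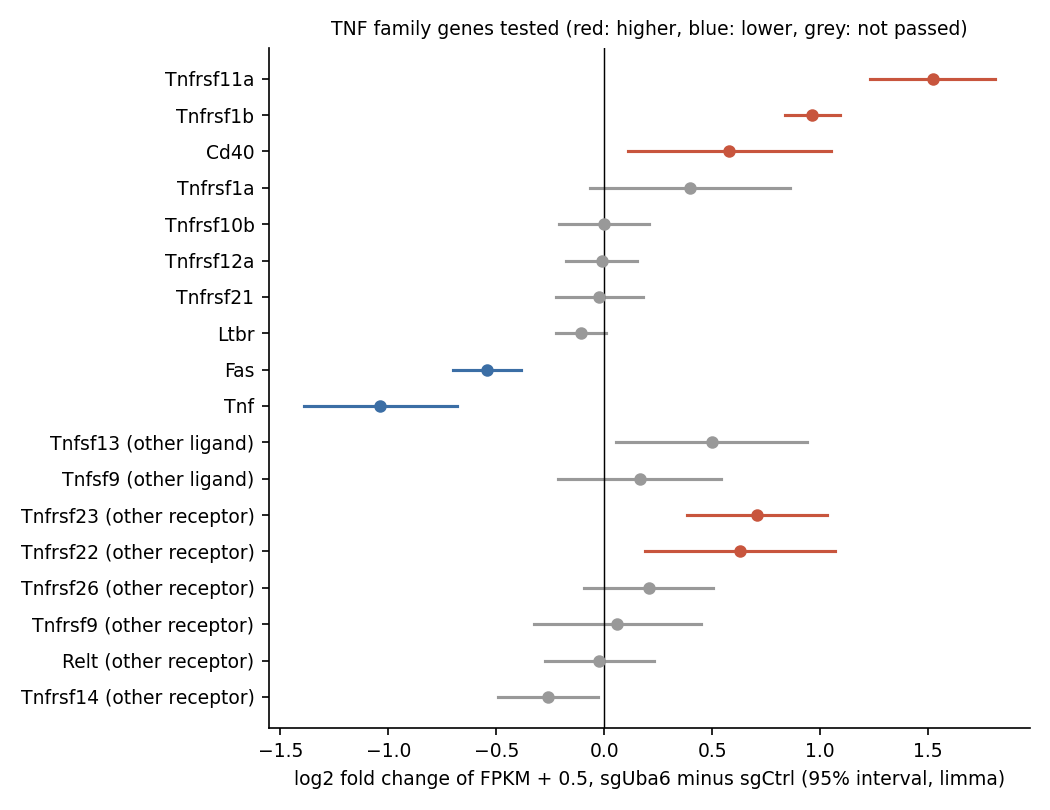
Log2 fold change of FPKM + 0.5, sgUba6 minus sgCtrl (x axis), with its 95% interval from limma, for the 10 members, the 2 other ligands and the 6 other receptors tested; red marks genes called higher, blue genes called lower and grey genes that did not pass. Tnfrsf11a has the highest point at 1.52 and Tnf the lowest at -1.04.

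Of 19 further receptor genes 17 had values and 6 passed the filter. Where limma called 24.7% of all genes tested higher and 22.7% lower, it called 2 of these 6 higher, 0 lower and 4 neither. At an unadjusted p under 0.05 1 was lower. The 2 called higher were Tnfrsf22 and Tnfrsf23, known as decoy TRAIL receptors of the mouse, which lie in a cluster on chromosome 7 with Tnfrsf26. Tnfrsf23 measured 4.12, 4.38 and 6.10 FPKM in the control libraries against 7.92, 8.59 and 7.97 FPKM in the edited libraries. Its groups did not overlap and its change of 0.71 (limma adjusted p = 0.00524) passed in all 14 alternatives. Tnfrsf22 measured 6.93, 5.64 and 8.46 FPKM in the control libraries against 9.68, 14.1 and 9.69 FPKM in the edited libraries, a change of 0.63 (limma adjusted p = 0.0287). That call was lost without sgCtrl 1, sgCtrl 2 or sgUba6 2 (adjusted p up to 0.0787 from limma, change 0.46 without sgUba6 2), and the gene shares up to 766 bases with other genes, so its reads are uncertain. The signalling TRAIL receptor gene Tnfrsf10b, by contrast, had overlapping groups, although a difference between it and the decoys was not tested. Tnfrsf9, Tnfrsf14, Tnfrsf26 and Relt had log2 differences of 0.06, -0.26, 0.21 and -0.02 and did not pass. Tnfrsf14 passed as lower without sgUba6 1 (change -0.34, limma adjusted p = 0.0299). Below the filter, Ngfr was listed at 0 in all controls and at 0.226, 0.235 and 0.306 FPKM in sgUba6 cells.

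Downstream of the receptors, 26 of 28 genes of the signalling complexes were tested, with 7 called higher, 7 lower and 12 not, and a median change of -0.05, beside 0.01 for all genes and calls of 24.7% and 22.7%. Tnfaip3, which encodes the ubiquitin-editing enzyme A20, measured 22.7, 23.1 and 20.8 FPKM in the control libraries against 49.3, 47.0 and 26.8 FPKM in the edited libraries. Here too sgUba6 3 stood apart, now towards the controls, and the change of 0.83 (limma adjusted p = 0.0193) lost its call without sgCtrl 3, sgUba6 1 or sgUba6 2, with adjusted p up to 0.0609 from limma. Traf1, an adaptor of TNFR2 signalling, was at 12.7 to 14.3 FPKM in sgCtrl cells and 20.8 to 22.2 FPKM in sgUba6 cells, a change of 0.64 (limma adjusted p = 0.000238). Map3k14, which encodes the kinase NIK of the non-canonical NF-κB pathway, was at 7.05 to 7.85 FPKM and 11.7 to 12.0 FPKM, a change of 0.61. Tnip1, the gene of an A20 partner, changed by 0.40, and none of these 3 genes overlapped between groups. Birc3, which encodes the ubiquitin ligase cIAP2, fell by 0.49 on the log2 scale, from 8.55 to 10.2 FPKM in sgCtrl cells to 6.10 to 7.52 FPKM in sgUba6 cells. Birc2, the other cIAP gene of the list, went the other way and rose by 0.24 (limma adjusted p = 0.0268). That call was lost without sgUba6 2 or sgUba6 3, with adjusted p up to 0.0771 from limma. Otulin, the gene of a deubiquitinase for linear chains, fell by 0.40 on the same scale, a change of nearly the same size as that of Tnip1, and Cyld fell by 0.35. Birc2, Otulin, Cyld and the adaptors that follow were named after their values were seen. Of adaptors that the members recruit, Tradd rose by 0.35, Traf2 fell by 0.19 and Traf5 fell by 0.35, while Fadd (-0.18), Ripk1 (0.08), Casp8 (0.01) and Traf3 (-0.13) did not pass. The count called higher was 4 without sgUba6 2.

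**Figure D5:**
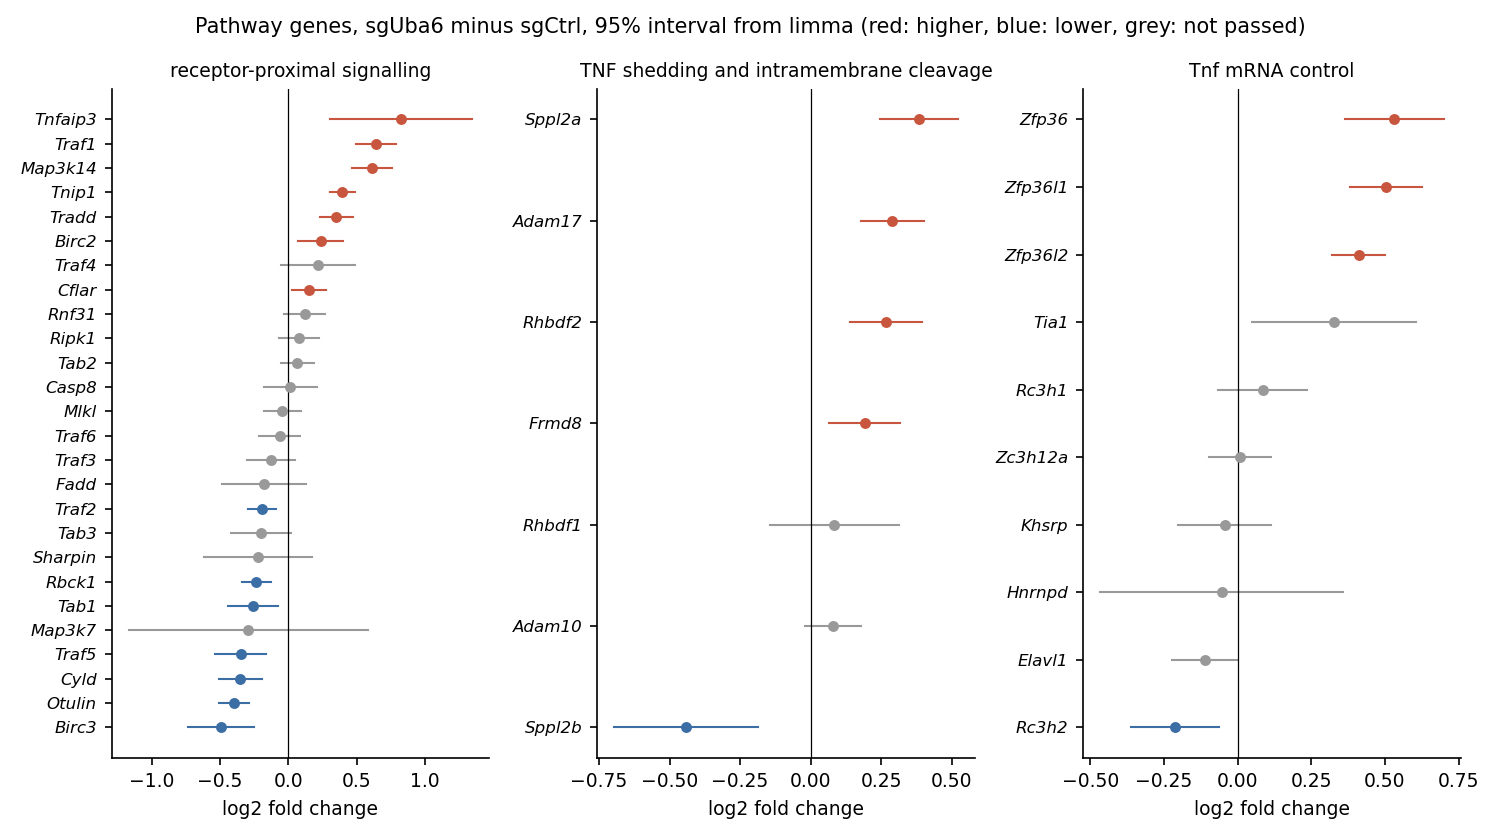
Log2 fold change (x axes, sgUba6 minus sgCtrl) with 95% interval from limma for the genes tested of receptor-proximal signalling, of TNF shedding and intramembrane cleavage, and of Tnf mRNA control; red marks genes called higher, blue lower and grey not passed. Signalling genes spread to both sides (7 higher, 7 lower), and Zfp36, Zfp36l1 and Zfp36l2 stand together at the top of the last panel.

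The machinery that releases TNF from the membrane or clears its remainder was tested in 7 genes of 8, of which 4 were called higher and 1 lower, with a median of 0.19, where 24.7% and 22.7% of all genes were called. Adam17, the TNF-converting protease, was at 22.5 to 23.5 FPKM in sgCtrl cells and 26.8 to 28.7 FPKM in sgUba6 cells, a change of 0.29 (limma adjusted p = 0.00237). Its trafficking partners Rhbdf2 (iRHOM2) and Frmd8 changed by 0.27 and 0.19, and the call of Frmd8 was lost without sgCtrl 1, sgUba6 2 or sgUba6 3 (adjusted p up to 0.0682 from limma). The intramembrane proteases moved in opposite directions, Sppl2a by 0.38 and Sppl2b by -0.44.

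Genes that act on the stability or translation of AU-rich mRNAs such as that of Tnf were tested in 10 of 10 cases, with 3 called higher, 1 lower and 6 not, and a median of 0.05. The 4 called genes are a smaller share than the 47.4% of all genes that were called. The 3 called higher were Zfp36, the tristetraprolin gene, and its relatives Zfp36l1 and Zfp36l2, whose products bind AU-rich elements and promote mRNA decay. Zfp36 measured 3.57, 3.61 and 4.00 FPKM in the control libraries against 5.45, 5.62 and 5.73 FPKM in the edited libraries, a change of 0.53 (limma adjusted p = 0.00101). Zfp36l1 was at 19.6 to 21.6 FPKM and 28.3 to 29.4 FPKM (change 0.50), and Zfp36l2 at 79.9 to 85.9 FPKM and 108.2 to 111.2 FPKM (change 0.41), so no library of these genes overlapped between groups. Rc3h2, which encodes a roquin that acts on Tnf mRNA, changed by -0.21 (limma adjusted p = 0.0282). That call was lost on leaving out any library except sgUba6 1, with adjusted p up to 0.0867 from limma, and the count called lower was 0 without sgCtrl 2, sgCtrl 3, sgUba6 2 or sgUba6 3. Whether any of these changes bears on the level of Tnf was not tested.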

How the data were processed

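RNA-seq values of 6 libraries (3 sgCtrl, 3 sgUba6) were used, grouped by title and genotype in the labels. The authors deposited FPKM per gene and library, with their own fold change, p-value and q-value, which were not used. The study's methods name a NEB Next Ultra Directional kit, Cutadapt, HISAT2 on GRCm38, StringTie, Cuffdiff and DESeq2, whereas the submitters' processing notes list RSEM and edgeR on mm10, with HISAT2, Trimmomatic, FastQC and CASAVA 1.8. The methods assign the FPKM to Cuffdiff and the notes do not mention it, and which of these routes holds for the deposited table was not settled here. The study tested its differential expression on counts, and counts were not used here. Whole reads were not recovered either, since only 37.8 to 43.0% of low values lay within 0.05 of a whole step, so no interval for counting error is given.

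FPKM of at least 0.5 in 3 libraries were required of a gene, which 12190 of 19255 met. Groups were compared on log2(FPKM + 0.5) with limma 3.58.1 (trended eBayes, R 4.3.3) and Benjamini-Hochberg adjustment over the genes kept. Ratios, which were not part of the planned tests, were compared on the log2 scale with an exact permutation test. A gene was called higher or lower at an adjusted p under 0.05. The fit was tested on simulated data. Coordinates matched GENCODE M21 (19248 of 19255 genes), and promoters came from RefSeq (8 of 10 members matched). Exons of members and listed genes were searched with blastn for stretches of at least 200 bases at 95% identity in other genes. Columns were mapped to libraries by title.

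Other settings tried were a constant of 0.1 or 1, a filter of 1 FPKM or none, quantile normalization, median-of-ratios scaling, eBayes with no trend, the replicate number as a block and leaving out each library. For the lists they were added after seeing the data. The members and lists were chosen with earlier results of these data known. Named were all members, Uba6, the tested genes of the ligand and receptor lists, up to 5 called genes of each other list by size of change, and the 3 protein-coding genes most correlated with Tnf and with the most abundant member.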

Additional observations from a re-analysis of the deposited data

How the results depend on the processing

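For the members, 118 of 139 values in the alternatives kept their direction and side of the threshold, 10 were lost calls of Cd40, and 11 were changes of sign in members not called in either fit. The values kept include those of Tnf and Tnfrsf11a, whose groups had to differ once the genes passed the filter. The sign turned for Tnfrsf12a (0.058) and Tnfrsf10b (-0.0096) under quantile normalization and for Tnfrsf10b (-0.011) under median-of-ratios scaling. Leaving out a library gave -0.059 to 0.070 for Tnfrsf12a, -0.057 to 0.092 for Tnfrsf10b and -0.082 to 0.037 for Tnfrsf21. The count of members called lower was 1 with a filter of 1 FPKM, which left out Tnf. Across genes 2526 to 3128 were called higher and 2330 to 2932 lower. Without a filter, the other ligands had 1 gene called higher (Tnfsf10) and 1 lower (Eda), and the other receptors had 5 called higher (Ngfr, Tnfrsf11b and Tnfrsf25 added). Under quantile normalization 1 other receptor (Tnfrsf14) was called lower. On leaving out each library in turn, calls ranged from 0 to 2 higher for the other ligands, 1 to 2 higher and 0 to 1 lower for the other receptors, 4 to 7 higher for the signalling genes and 0 to 1 lower for the Tnf mRNA control genes. Replicate numbers did not pair the libraries: same-numbered deviations correlated at 0.0156, -0.0567 and -0.0223. With the replicate number as a block, 2718 genes were called higher and 2552 lower, the members gave 3 higher and 2 lower, the other ligands 1 higher, the other receptors 1 higher and the Tnf mRNA control genes 0 lower. Of 909 values of other named genes, 836 kept direction and call, 35 lost the call, 10 gained it and 28 changed sign with no call in either fit. Under quantile normalization these were Tnfrsf9 (-0.10), Tnfrsf26 (-0.036), Mlkl (0.0013), Khsrp (0.0096), Hnrnpd (0.0045) and Agpat3 (0.022), and under median-of-ratios scaling Zc3h12a (-0.0049). Leaving out a library gave ranges across 0 for Tnfrsf9 (-0.055 to 0.19), Relt (-0.11 to 0.032), Mlkl (-0.072 to 0.010), Casp8 (-0.053 to 0.071), Map3k7 (-0.61 to 0.014), Rhbdf1 (-0.028 to 0.16), Khsrp (-0.11 to 0.023), Hnrnpd (-0.28 to 0.071), Zc3h12a (-0.015 to 0.038), Agpat3 (-0.054 to 0.055), Bcl2l13 (-0.12 to 0.16) and Rce1 (-0.039 to 0.066). The causes were not tested. Low members (Tnf, Tnfrsf11a, Cd40) rest on few fragments, and protein levels were not analysed here.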
